A study of Mus musculus with 12 samples.

Results

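The MIP-1 type CC chemokines examined here are Ccl3, Ccl4, Ccl5, Ccl6 and Ccl9, 5 of the 18194 genes named on the arrays. The members were given by name, and each was read from the probeset with the highest mean over the 11 arrays other than IRAK1/IRAK2 KO at 0 h. A probeset is the set of short array probes that reads 1 transcript. Ccl3 (1419561_at), Ccl4 (1421578_at) and Ccl5 (1418126_at) had 1 probeset each. Ccl6 (1417266_at) and Ccl9 (1417936_at) had a second one, described separately. The values are log2 signals and were all measured in mouse peritoneal macrophages recruited with thioglycollate, an irritant injected into the peritoneum. One group of arrays came from IRAK1/IRAK2 KO mice, which lack both kinases, the next from IRAK2 KO mice and the last from wild-type mice. Each genotype was represented by 1 array at 0, 2, 4 and 8 h of MALP-2 at 100 ng/ml, 12 arrays in all, so the 0 h arrays hold unstimulated cells. MALP-2 is a mycoplasmal lipopeptide sensed by the TLR2 and TLR6 receptor pair. The labels give neither the mouse strain, sex and age nor the number of mice behind an array, and they do not describe the deleted segments.

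IRAK1 and IRAK2 are kinases that carry the signal of Toll-like receptors from the adaptor MyD88 towards NF-kB and the MAP kinases. The MIP-1 type chemokines are small secreted proteins with paired cysteines near the amino terminus, and macrophages are a major source of them. Ccl3 (MIP-1 alpha) and Ccl5 (RANTES) share the receptor CCR1, Ccl5 also acts through CCR3, and Ccl4 (MIP-1 beta) is a close relative of Ccl3. Ccl6 (C10) and Ccl9 (MIP-1 gamma) are rodent chemokines that act through CCR1. Together they draw monocytes, T cells, dendritic cells and eosinophils into inflamed tissue.

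The 5 genes lie side by side on chromosome 11 in the order Ccl5, Ccl9, Ccl6, Ccl3, Ccl4. The promoter windows of Ccl3, Ccl6 and Ccl9 are shown because windows were available for these members only. These neighbours differed in their response to MALP-2 (values follow). RefSeq sequences of build GRCm38.p6 were matched by symbol for 3 of the 5 members. Each window has 300 bases on the minus strand, printed 5′ to 3′, with 250 before the annotated start, which is position 0, and 50 from it onwards. The windows are chr11:83649329-83649628 for Ccl3, chr11:83593038-83593337 for Ccl6 and chr11:83578587-83578886 for Ccl9. Capitals mark matches on either strand to the NF-kB consensus, to the AP-1 motif TGANTCA and to TATAA.
Ccl3: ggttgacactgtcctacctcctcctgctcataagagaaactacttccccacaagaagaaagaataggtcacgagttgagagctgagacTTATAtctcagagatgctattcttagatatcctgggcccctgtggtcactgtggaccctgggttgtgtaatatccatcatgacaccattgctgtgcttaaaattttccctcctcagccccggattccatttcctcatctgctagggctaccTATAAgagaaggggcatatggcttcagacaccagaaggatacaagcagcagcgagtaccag
Ccl6: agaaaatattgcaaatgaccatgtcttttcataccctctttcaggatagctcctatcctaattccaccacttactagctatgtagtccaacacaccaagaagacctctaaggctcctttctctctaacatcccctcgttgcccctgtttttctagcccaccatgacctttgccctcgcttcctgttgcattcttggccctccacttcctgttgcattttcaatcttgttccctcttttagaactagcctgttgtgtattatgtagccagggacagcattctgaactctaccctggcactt
Ccl9: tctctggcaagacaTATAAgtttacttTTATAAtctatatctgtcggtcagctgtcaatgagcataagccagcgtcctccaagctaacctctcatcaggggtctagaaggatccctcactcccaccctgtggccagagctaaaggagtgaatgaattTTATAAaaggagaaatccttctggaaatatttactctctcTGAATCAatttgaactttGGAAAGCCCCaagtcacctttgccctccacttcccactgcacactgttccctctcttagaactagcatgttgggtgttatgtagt
The Ccl9 window held 1 NF-kB match beginning at -35 and 1 TGANTCA match beginning at -53, and neither motif was found in the windows of Ccl3 and Ccl6. Of all 32851 promoter windows of this length, 8.46% held the NF-kB consensus and 7.81% held TGANTCA. The TATA-box letters TATAA, found in 24.9% of windows, matched 2 times in Ccl3, with 1 match beginning at -11, and 5 times in Ccl9, but not in Ccl6. The core GGAAG of ETS factors matched in all 3 windows and in 71.4% of all windows. The C/EBP motif TTNNGNAA, held by 40.7% of windows, matched in Ccl3 and Ccl9, and its Ccl9 match beginning at -38 overlaps the NF-kB match. An interferon-response element, held by 3.44% of windows, matched in none of the 3. The Ccl6 and Ccl9 windows shared a stretch in which 36 of 40 aligned bases were identical, from -25 to 14 in Ccl6 and from 9 to 48 in Ccl9. The best local matches of the Ccl3 window were 11 of 12 bases with Ccl6 and 8 of 8 with Ccl9. A match of letters is a description and does not show that a factor binds there.

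Before the members, some facts of the arrays bear on the values. The IRAK1/IRAK2 KO array at 0 h stood apart from the rest, with correlations of 0.764 to 0.804 with the other arrays, while every other pair reached at least 0.954. It therefore enters no test, and each response of a member in that genotype is given against it and against the mean of the 0 h arrays of IRAK2 KO and wild type. The difference between 5′ and 3′ control probesets, a sign of RNA integrity and labelling, was -4.68 to -3.87 for actin in stimulated IRAK1/IRAK2 KO arrays, against -3.72 to -3.18 in the 8 arrays of IRAK2 KO and wild type. For Gapdh it was -5.90 to -4.36 in stimulated IRAK1/IRAK2 KO arrays, against -3.84 to -3.42 in those 8 arrays, and its part in the results was not tested. The Irak2 probeset read 3.53, 5.19, 4.61 and 5.09 at 0, 2, 4 and 8 h in IRAK1/IRAK2 KO and 5.63, 5.51, 4.71 and 4.65 in IRAK2 KO, against 6.21, 6.69, 6.29 and 5.77 in wild type. The 4 Irak1 probesets were all lower in the stimulated IRAK1/IRAK2 KO arrays than in wild type at the same time, by differences of -1.33 to -0.090. Their position against the deleted segments was not analysed here. At 0 h, 2 of the 4 read higher in IRAK1/IRAK2 KO than in wild type, by 2.25 and 2.07. The floor, the median of all values of the 11 arrays, was 3.83, and all 5 members lay above it on each of those 11 arrays.

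Macrophages of IRAK2 KO and wild-type mice answered MALP-2 with more Ccl3, Ccl4, Ccl5 and Ccl9 transcript. Ccl6 did not pass the test of the mean of 2, 4 and 8 h on either probeset. Ccl3 read 8.37, 12.47, 12.53 and 11.35 at 0, 2, 4 and 8 h in IRAK2 KO, against 7.98, 12.46, 12.89 and 12.80 in wild type. Ccl4 read 5.16, 9.01, 8.61 and 6.42 in IRAK2 KO, against 4.66, 9.10, 10.004 and 9.31 in wild type. In both genotypes the 0 h array was the lowest of the 4 for these neighbouring genes, and the highest was at 4 h for both genes in wild type, at 4 h for Ccl3 and at 2 h for Ccl4 in IRAK2 KO. Ccl5, made late by activated T cells and early by macrophages, read 5.74, 10.32, 10.52 and 10.20 in IRAK2 KO, against 6.05, 10.22, 10.83 and 10.53 in wild type. Ccl9 read 10.92, 12.74, 12.98 and 12.92 in IRAK2 KO, against 10.16, 12.54, 12.87 and 12.68 in wild type. Both genes were highest at 4 h in both genotypes and stood at 8 h close to their 4 h readings. Ccl6 read 11.25, 11.22, 11.48 and 11.30 in IRAK2 KO, against 10.58, 10.46, 11.06 and 11.06 in wild type, and its 2 h arrays lay just below 0 h in both. With 1 array a group, the order of neighbouring times has no spread to be set against.

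**Figure D1:**
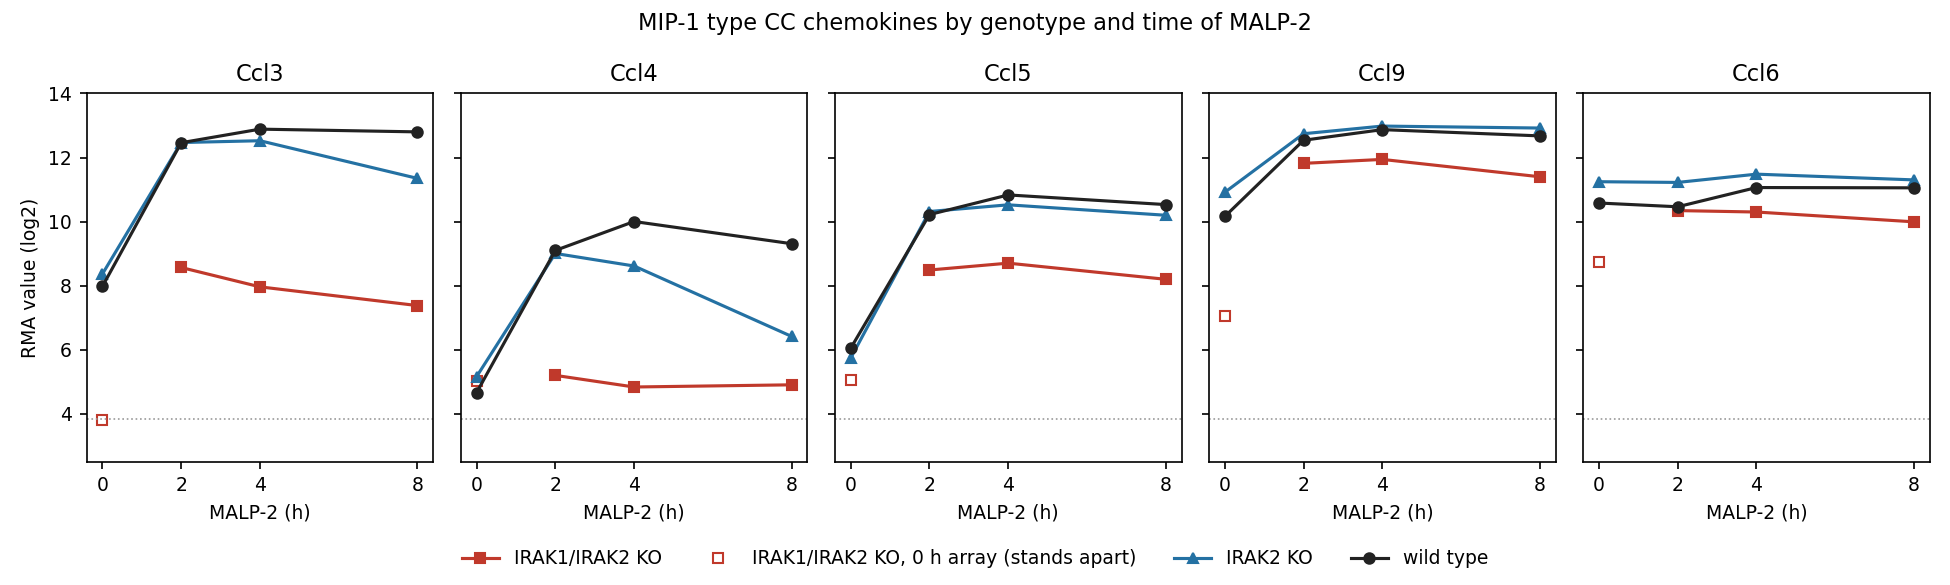
Log2 signal of the main probeset (vertical axis) against hours of MALP-2 (horizontal axis) for Ccl3, Ccl4, Ccl5, Ccl9 and Ccl6 in IRAK1/IRAK2 KO, IRAK2 KO and wild-type macrophages, 1 array per point. The hollow square is the IRAK1/IRAK2 KO array at 0 h and the dotted line is the floor of 3.83. Stimulated IRAK1/IRAK2 KO arrays lie below those of both other genotypes in all 5 panels.

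The response was fitted with limma on the 8 arrays of IRAK2 KO and wild type, with Benjamini-Hochberg adjustment over 10801 genes, and its p-value weighs a response against its constancy over these 2 genotypes. Of all genes tested, 18.9% were called higher, and 4 of the 5 members were. The mean of 2, 4 and 8 h minus 0 h was 4.55 ± 0.11 log2 for Ccl5 (SE, limma adjusted p = 2.07e-07) and 4.24 ± 0.29 for Ccl3 (adjusted p = 2.58e-05). It was 3.83 ± 0.54 for Ccl4 (limma adjusted p = 7.68e-04) and 2.25 ± 0.13 for Ccl9 (adjusted p = 1.20e-05). Ccl6 differed by 0.18 ± 0.12 (limma adjusted p = 0.228). The median response of all genes tested was -0.060.

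With IRAK1 and IRAK2 both missing, Ccl3, Ccl4 and Ccl5 were far lower at every stimulated time, and Ccl9 and Ccl6 were lower by smaller amounts on their main probesets. On the second probesets Ccl9 was 15.8%, 7.22% and 14.8% and Ccl6 118.1%, 79.3% and 75.6% of wild type at 2, 4 and 8 h, so the place of these genes in that order depends on the probeset. Ccl3 read 8.57, 7.96 and 7.38 at 2, 4 and 8 h in IRAK1/IRAK2 KO, which is 6.72%, 3.29% and 2.33% of the wild-type signal. Ccl4 read 5.20, 4.84 and 4.91, or 6.70%, 2.79% and 4.72% of wild type, and stayed near the wild-type 0 h reading of 4.66. Ccl5 read 8.49, 8.70 and 8.20, which is 30.2%, 22.8% and 19.9% of wild type and above the 0 h readings of all 3 genotypes. Ccl9 read 11.82, 11.94 and 11.40, or 60.7%, 52.5% and 41.3% of wild type. Ccl6 read 10.35, 10.30 and 9.99, or 92.1%, 58.9% and 47.9% of wild type. Over 2, 4 and 8 h the IRAK1/IRAK2 KO arrays overlapped neither the IRAK2 KO nor the wild-type arrays for any of the 5 members on their main probesets. The share of all genes without such overlap was not counted, so the separation describes the members' values only. At least 2-fold below wild type were 3 members at 2 h, 3 at 4 h and 5 at 8 h, with 4.50%, 6.14% and 4.89% of all measured genes. In RNA of a whole culture, fewer cells of a type and less RNA per cell cannot be told apart.

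Genotypes were compared with limma on the 9 stimulated arrays, with time as an additive factor and Benjamini-Hochberg adjustment over 10854 genes. Its p-values ask how steady a difference was over the 3 times, and they do not measure the spread between mice. All 5 members fell in IRAK1/IRAK2 KO relative to wild type, where 17.3% of all genes tested were called lower, 23.7% higher and 41.1% in either direction. The differences were -4.75 ± 0.28 log2 for Ccl3 (SE, limma adjusted p = 1.99e-05) and -4.49 ± 0.47 for Ccl4 (adjusted p = 2.31e-04). They were -2.06 ± 0.14 for Ccl5 (limma adjusted p = 3.08e-05) and -0.98 ± 0.14 for Ccl9 (adjusted p = 9.51e-04). Ccl6 was lower by -0.65 ± 0.17 (limma adjusted p = 0.0141), and this call was lost without the 4 h arrays (-0.59, adjusted p = 0.123), without the 8 h arrays (-0.44, adjusted p = 0.0889) and with the mean of its probesets (-0.41, adjusted p = 0.0558). The median was -2.06 over the members and 0.066 over all genes tested. Whether the members differ from each other in the size of this loss was not tested.

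The comparison of IRAK1/IRAK2 KO with IRAK2 KO shows the loss of IRAK1 added to that of IRAK2, and shares the IRAK1/IRAK2 KO arrays with the preceding one. All 5 members fell here too, where 16.7% of all genes were called lower. Ccl3 differed by -4.14 (limma adjusted p = 4.07e-05), Ccl4 by -3.03 (adjusted p = 0.00147) and Ccl5 by -1.88 (adjusted p = 5.76e-05). Ccl9 differed by -1.16 (limma adjusted p = 4.95e-04) and Ccl6 by -1.12 (adjusted p = 0.00126).

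What remained of the MALP-2 response without both kinases depends on the 0 h level it is set against. The IRAK1/IRAK2 KO array at 0 h read 3.80 for Ccl3, 5.02 for Ccl4, 5.05 for Ccl5, 8.73 for Ccl6 and 7.06 for Ccl9. Ccl5 lay 3.44, 3.66 and 3.15 log2 above the IRAK1/IRAK2 KO 0 h array at 2, 4 and 8 h, and 2.60, 2.81 and 2.31 above the mean of the other 0 h arrays. Ccl9 lay 4.76, 4.88 and 4.34 above its own 0 h array, and 1.28, 1.40 and 0.86 above that mean. On the second Ccl9 probeset the values were 1.36, 1.35 and 1.92 above its own 0 h array, but 0.21, 0.20 and 0.77 above that mean, so the size for Ccl9 depends on the probeset. Ccl3 lay 4.77, 4.17 and 3.58 above its own 0 h array, but 0.40, -0.21 and -0.79 from the mean of the other 0 h arrays. Ccl4 lay 0.18, -0.18 and -0.11 from its own 0 h array, and 0.29, -0.072 and -0.0044 from the mean of the others. Ccl6 lay 1.61, 1.57 and 1.26 above its own 0 h array, but -0.57, -0.61 and -0.92 from the mean of the others. The second Ccl6 probeset lay -0.039, -0.038 and -0.45 from its own 0 h array, and -0.13, -0.13 and -0.54 from that mean. At least 2-fold above their own 0 h array were 4 of 5 members at each time, with 31.0%, 32.5% and 34.8% of all measured genes. Against the mean of the other 0 h arrays, 2 members (Ccl5 and Ccl9) passed at 2 h, the same 2 at 4 h and Ccl5 alone at 8 h, with 4.22%, 4.57% and 3.42% of all measured genes. The second Ccl9 probeset did not reach 2-fold against that mean at any time. These are sizes without a test.

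Loss of IRAK2 alone left the 2 h values of Ccl3, Ccl4 and Ccl5 near those of wild type, and the lower values of Ccl3 and Ccl4 stood at the later times. Ccl4 in IRAK2 KO was 93.7%, 38.2% and 13.5% of wild type at 2, 4 and 8 h. Ccl3 differed from wild type by 0.0056, -0.36 and -1.45 log2, and its 8 h signal was 36.5% of wild type. Ccl5 differed by 0.10, -0.31 and -0.33, and its 8 h signal was 79.4% of wild type. Ccl9 lay 0.20, 0.11 and 0.25 and Ccl6 0.76, 0.42 and 0.25 above wild type, and at 0 h they lay 0.75 and 0.66 above it. At least 2-fold below wild type were no member at 2 h, Ccl4 at 4 h, and Ccl3 and Ccl4 at 8 h, with 0.286%, 0.528% and 1.21% of all measured genes. The stimulated arrays of IRAK2 KO and wild type did not overlap for Ccl4, which was lower, and for Ccl6, which was higher, and they overlapped for Ccl3, Ccl5 and Ccl9. How many of all genes lacked overlap was not counted, and neither Ccl4 nor Ccl6 was called in the fit that follows.

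None of the 5 members was called between IRAK2 KO and wild type in the limma fit over 2, 4 and 8 h, where 0.765% of all genes were called in either direction and 1478 genes had an unadjusted p under 0.05. This comparison shares the wild-type arrays with that of IRAK1/IRAK2 KO. The difference for Ccl4 was -1.46 (95% interval -2.52 to -0.40, limma adjusted p = 0.228) and that for Ccl3 -0.60 (-1.23 to 0.03, adjusted p = 0.389). For Ccl5 it was -0.18 (-0.49 to 0.13, limma adjusted p = 0.596) and for Ccl9 0.19 (-0.13 to 0.50, adjusted p = 0.596). For Ccl6 it was 0.48 (0.10 to 0.85, limma adjusted p = 0.272).

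A further limma fit asked whether a genotype difference changed with each doubling of time. For IRAK2 KO minus wild type the slope was -1.40 log2 per doubling for Ccl4 (limma adjusted p = 0.877) and -0.73 for Ccl3 (adjusted p = 0.961). It was -0.21 for Ccl5, -0.26 for Ccl6 and 0.021 for Ccl9. For IRAK1/IRAK2 KO minus wild type it was -0.76 for Ccl3 (limma adjusted p = 0.161), -0.47 for Ccl6 (adjusted p = 0.197), -0.30 for Ccl5, -0.28 for Ccl9 and -0.25 for Ccl4. No member was called by this fit, which has 2 residual degrees of freedom and called 0.00921% and 0.138% of all genes in these contrasts, with 537 and 1625 genes at an unadjusted p under 0.05. The lower late values of Ccl3 and Ccl4 in IRAK2 KO are thus sizes on these arrays that did not pass a test across all genes.

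**Figure D2:**
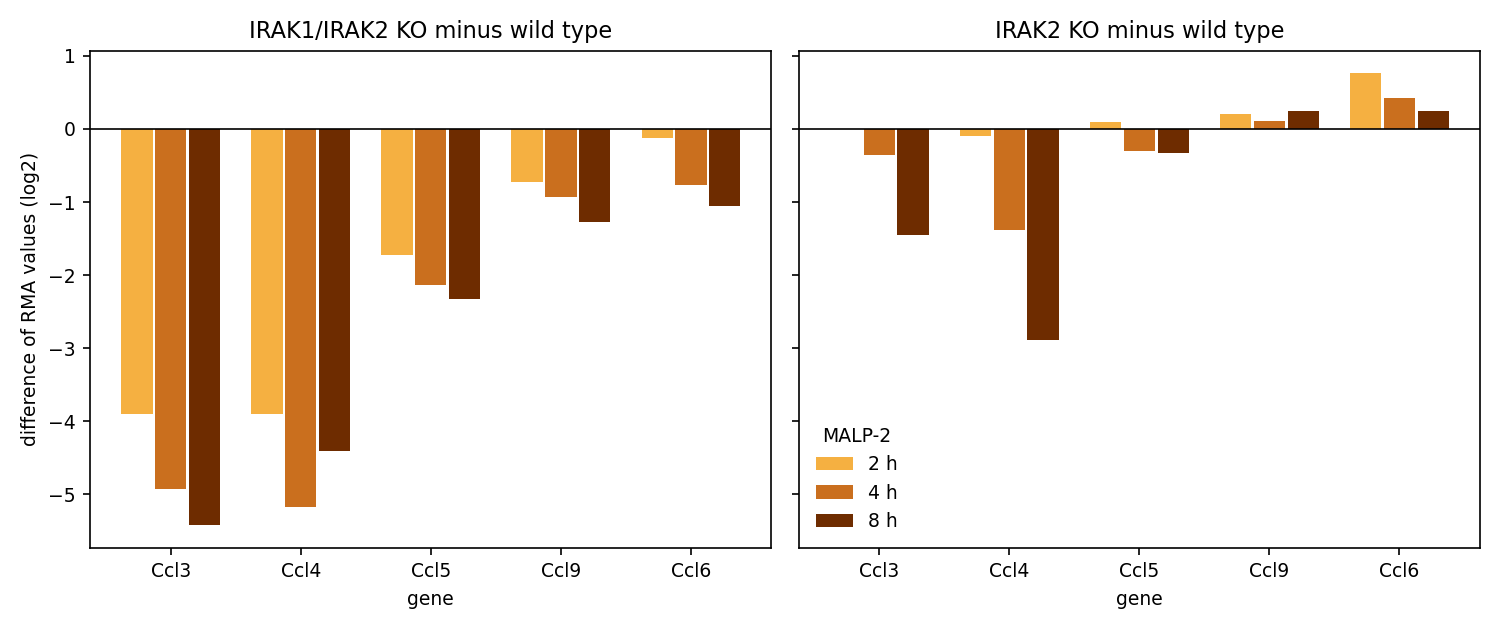
Difference from wild type in log2 (vertical axis) at each time of MALP-2 for the 5 members, in IRAK1/IRAK2 KO and in IRAK2 KO, 1 array per genotype and time. Ccl3 and Ccl4 in IRAK1/IRAK2 KO lie at -3.90 or lower at all 3 stimulated times, and Ccl4 in IRAK2 KO lies at -0.094, -1.39 and -2.89.

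The second probesets of Ccl9 and Ccl6 gave other sizes. The second Ccl9 probeset, 1448898_at, read 3.73, 5.10, 5.08 and 5.66 at 0, 2, 4 and 8 h in IRAK1/IRAK2 KO and 5.11, 8.38, 9.23 and 8.74 in IRAK2 KO, against 4.66, 7.76, 8.88 and 8.41 in wild type. On it IRAK1/IRAK2 KO was lower than wild type by -3.07 (limma adjusted p = 4.13e-05), where the main probeset, 1417936_at, gave -0.98. The response of IRAK2 KO and wild type was 3.68 on it (limma adjusted p = 2.32e-07), against 2.25 on the main one. The second Ccl6 probeset, 1420249_s_at, read 10.25, 10.21, 10.21 and 9.80 in IRAK1/IRAK2 KO and 10.68, 10.69, 11.17 and 10.82 in IRAK2 KO, against 10.01, 9.97, 10.55 and 10.21 in wild type. On it IRAK1/IRAK2 KO differed from wild type by -0.17 (limma adjusted p = 0.387), so the Ccl6 call rests on 1 probeset, while IRAK1/IRAK2 KO remained lower than IRAK2 KO by -0.82 (adjusted p = 0.00277). The Ccl6 response of IRAK2 KO and wild type was 0.22 on the second probeset (limma adjusted p = 0.0553), against 0.18 on the main one. At 4 h alone it was 0.51 on the second probeset (limma adjusted p = 0.00481), against 0.36 on the main one (adjusted p = 0.0772). Over the 11 arrays the probesets of a gene correlated with r = 0.893 for Ccl6 and 0.893 for Ccl9. The position of the probes on the transcripts was not analysed here, and the part of the 5′ to 3′ differences in these gaps was not tested.

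**Figure D3:**
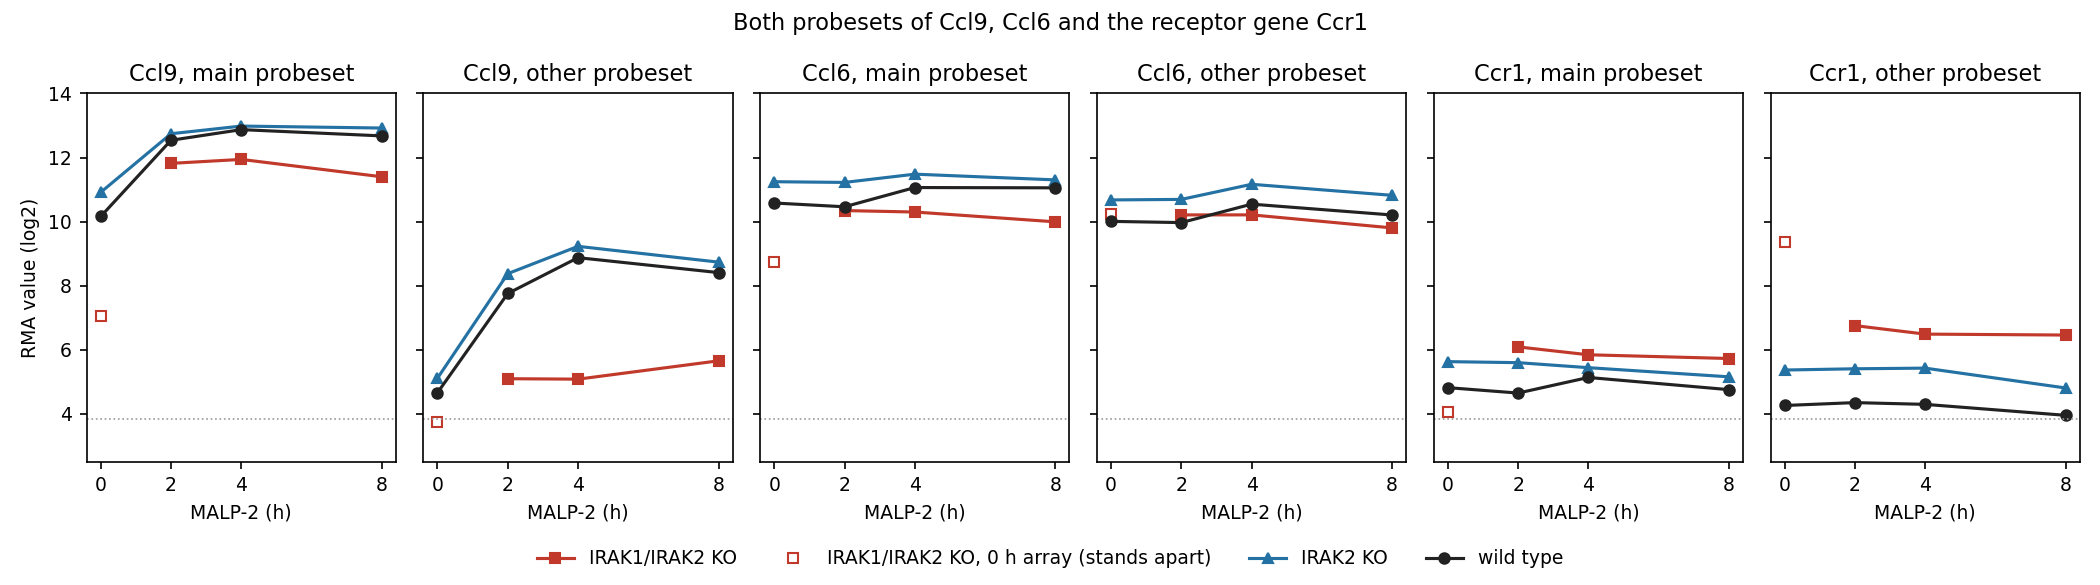
Log2 signal of both probesets of Ccl6, Ccl9 and Ccr1 (vertical axis) against hours of MALP-2 (horizontal axis) in IRAK1/IRAK2 KO, IRAK2 KO and wild-type macrophages, 1 array per point. At 2, 4 and 8 h the second Ccl9 probeset separates IRAK1/IRAK2 KO from the other genotypes by more than the main one, while at 0 h it separates them by less (-0.93 against -3.10 from wild type).

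Among the 11 arrays, Ccl3 and Ccl4 varied most alike (r = 0.964), and so did Ccl5 and Ccl9 (r = 0.963), while Ccl6 had its highest correlation with Ccl3 (0.643) and its lowest with Ccl5 (0.316). These values describe arrays that share genotypes and times. Likeness was searched among 2072 genes whose mean was at or above the floor and whose SD was at least 0.5, which include every member but Ccl6. Each member was left out of its own search. Those most like Ccl3 were Denr (r = 0.990), Zdhhc2 (0.988), Sh3bp5 (0.987), Med11 (0.985) and Il1b (0.982). Those most like Ccl4 were Hcar2 (0.986), Il1b (0.980), the chemokine gene Ccl22 (0.978), Denr (0.976) and Gar1 (0.974). Those most like Ccl5 were Traf1 (0.992), the mitochondrial dismutase gene Sod2 (0.992), Gpr84 (0.991), Vasp (0.991) and Cebpb (0.990). For Ccl9 they were Bvht (0.976), Gch1 (0.975), Clec5a (0.974), Il1rn (0.972) and Slc16a10 (0.967), and for Ccl6 Cd48 (0.942), Rsl1 (0.938), Gas5 (0.929), Zfp429 (0.923) and Cxcl13 (0.915).

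Among the receptors and decoys of these ligands, 4 of 8 listed genes could be tested, 2 of them higher and 1 lower in IRAK1/IRAK2 KO than in wild type, and none was called in IRAK2 KO. Ccr1, the receptor shared by Ccl3, Ccl5, Ccl6 and Ccl9, read 6.09, 5.84 and 5.73 at 2, 4 and 8 h in IRAK1/IRAK2 KO and 5.60, 5.44 and 5.16 in IRAK2 KO, against 4.65, 5.14 and 4.76 in wild type. Ccr1 was higher by 1.04 in IRAK1/IRAK2 KO than in wild type (limma adjusted p = 0.0011), the direction opposite to that of its ligands. Its second probeset gave 2.37 (limma adjusted p = 1.34e-05). On it IRAK2 KO was also higher than wild type by 1.01 (limma adjusted p = 0.0147), against 0.55 (adjusted p = 0.176) on the main one. At 0 h IRAK2 KO already lay 0.81 above wild type on the main probeset and 1.11 on the second. The Ccr1 response of IRAK2 KO and wild type to MALP-2 was -0.10 (limma adjusted p = 0.582). At 0 h the IRAK1/IRAK2 KO array lay -0.75 from wild type on the main probeset but 5.11 on the second. Ccrl2, a receptor that presents chemerin and does not signal, was lower by -0.67 in IRAK1/IRAK2 KO (limma adjusted p = 0.0490). Its differences from wild type at 2, 4 and 8 h were -0.37, -0.088 and -1.54, so most of this mean lay at 8 h. Ackr4, a scavenger of other chemokines, was higher by 0.84 on its main probeset and by 0.82 on 1437669_x_at. Its probeset 1426139_a_at stayed below the floor at 2, 4 and 8 h in all 3 genotypes. There IRAK1/IRAK2 KO differed from wild type by -0.17, -0.029 and -0.070, so the Ackr4 difference depends on the probeset. Ccr3 read 3.02 to 3.53, below the floor.

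Of the other CC chemokines, 7 of 14 could be tested, 5 were lower in IRAK1/IRAK2 KO than in wild type and none was higher, with a median of -1.86 (0.066 over all genes). The monocyte attractant Ccl2 differed by -2.68, Ccl8 by -1.89, and Ccl22 and Ccl7 by -1.86 each. Ccl8 was also lower in IRAK2 KO than in wild type by -2.72 (limma adjusted p = 1.14e-04), and at 0 h it already read 4.40 in IRAK2 KO, against 7.82 in wild type. MALP-2 raised 4 of the 7 in IRAK2 KO and wild type.

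Of 13 tested transcription factors linked to Ccl5 transcription, 9 were lower and 3 higher in IRAK1/IRAK2 KO than in wild type. Over all genes tested, 17.3% were called lower and 23.7% higher in this comparison. The counts of every list in it stand beside these shares, and whether a list departs from them was not tested. The NF-kB subunit genes Nfkb2 and Rel were lower by -2.59 and -1.71, Irf3 by -1.18 and Cebpb by -1.07. In IRAK2 KO none was called. Of 11 regulators of messenger decay, 2 were lower (Zc3h12a, whose product cleaves cytokine messengers, by -2.81, and the stabilizing factor gene Elavl1 by -1.13) and 2 were higher (Tia1 by 0.66 and Tial1 by 0.35) in IRAK1/IRAK2 KO than in wild type. Of 8 tested genes of chemokine storage and processing, Sdc4, a heparan sulfate proteoglycan of the cell surface, was lower by -3.42 and Srgn, the granule proteoglycan serglycin, by -0.70, while the protease gene Mmp12 was higher by 0.93. Of 9 tested genes of chemokine receptor signalling, 4 were lower and 2 higher, among them the GTPase gene Rac2 (-1.95) and the arrestin gene Arrb1 (1.08).

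The genes around the cluster gave another comparison by position. Of 12 neighbours with a probeset, 8 could be tested, and 4 were lower and 1 higher in IRAK1/IRAK2 KO than in wild type. The shares over all genes tested were 17.3% lower and 23.7% higher. Wfdc17, the nearest neighbour on the side of Ccl4, differed by -0.043 (limma adjusted p = 0.785), whereas Wfdc18 and Wfdc21, which follow it, were lower by -1.62 and -2.82. On the side of Ccl5, Taf15 was lower by -0.48 (limma adjusted p = 0.0464). In IRAK2 KO no neighbour was called.

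**Figure D4:**
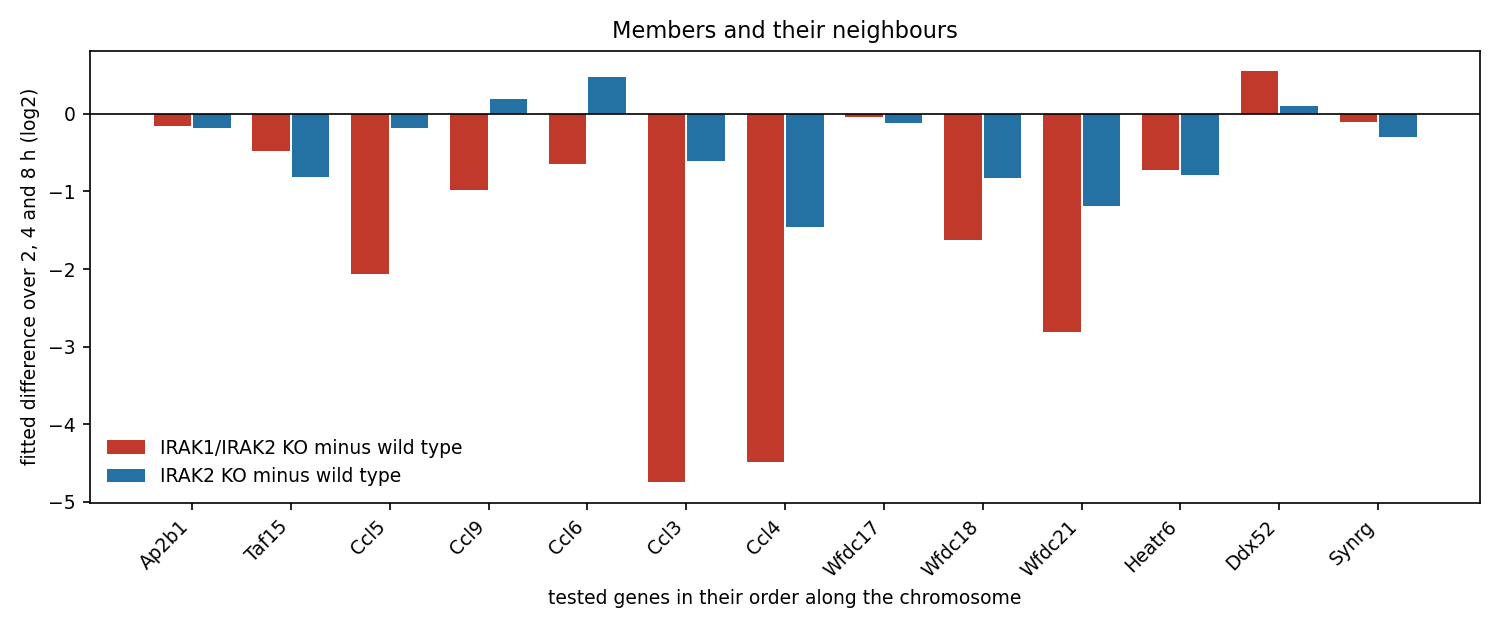
Log2 difference of IRAK1/IRAK2 KO and IRAK2 KO from wild type over 2, 4 and 8 h for the tested genes of the cluster and its neighbours in their order on chromosome 11. Ccl3 and Ccl4 have the lowest IRAK1/IRAK2 KO values, and Wfdc17 beside Ccl4 lies at -0.043.

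Markers of other cells that make or receive these chemokines were read on the same arrays. Of 8 macrophage markers, 7 or 8 lay at least 1 log2 above the floor on every array. In IRAK1/IRAK2 KO 4 of the 8 were lower than in wild type (the endotoxin co-receptor gene Cd14 by -1.85, the integrin gene Itgam by -0.78, Adgre1, which encodes F4/80, by -0.69 and the Fc receptor gene Fcgr1 by -0.56), and Mertk was higher by 0.54. Csf1r (0.26), Lyz2 (-0.16) and Cd68 (-0.11) did not pass the test. Itgam read 3.82 to 5.28 over the 11 arrays, near the floor. In IRAK2 KO and wild type MALP-2 itself raised 2 of the 8 (Cd14 by 3.45 and Adgre1 by 0.83). It lowered 3 of the 8 (Mertk by -1.98, Fcgr1 by -1.80 and Cd68 by -0.30), and Csf1r, Lyz2 and Itgam were not called in that fit. The sums of the 8 were 73.45 to 76.29 in stimulated IRAK1/IRAK2 KO arrays, 76.60 to 78.03 in IRAK2 KO and 76.92 to 78.39 in wild type. Of 12 T and NK cell markers, 9 had a probeset and none reached 1 log2 above the floor on any array, with sums of 30.67 to 32.56 over the stimulated IRAK1/IRAK2 KO arrays, 30.72 to 31.89 in IRAK2 KO and 30.74 to 31.95 in wild type. Of 8 eosinophil and mast cell markers, 3 could be tested, and Siglecf and Cpa3 were higher in IRAK1/IRAK2 KO than in wild type by 1.19 and 1.20, while Epx and Prg2 stayed below the floor on every array. The sums of the 8 were 33.08 to 34.87 in stimulated IRAK1/IRAK2 KO arrays, 29.90 to 31.86 in IRAK2 KO and 30.58 to 31.18 in wild type. Of 9 neutrophil markers, 7 had a probeset and 5 could be tested, of which 3 were lower in IRAK1/IRAK2 KO than in wild type (S100a8 by -1.55, Csf3r by -1.51 and Camp by -1.18), with sums of the 7 of 36.11 to 37.62, against 38.47 to 40.48 in IRAK2 KO and 38.61 to 43.88 in wild type. Camp read 3.87 to 5.98 over the 11 arrays, so its lower readings lay near the floor. In IRAK2 KO and wild type MALP-2 raised 3 of 4 tested neutrophil markers and lowered 2 of 3 tested eosinophil and mast cell markers. For markers that MALP-2 moves, a changed response and a changed number of cells cannot be told apart here. The part of these markers in the differences of the members was not tested.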

How the data were processed

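Per the labels' protocols, total RNA was extracted with Trizol and labelled with the NuGEN Ovation system for Affymetrix arrays. The deposited values are log2 signals that the authors made with RMA, per the submitters' processing notes. Its version was not given in the sources used here. The table holds 45101 probesets, of which 34958 carried 1 gene symbol, 932 several and 9211 none, and 34754 were matched by gene identifier to the reference gene table. RMA equalizes the distributions of the arrays, so values compare arrays and not the absolute RNA amount of a cell.

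Fits used limma 3.58.1 in R 4.3.3 on genes whose mean reached the floor, with Benjamini-Hochberg adjustment and calls at an adjusted p of 0.05. With 1 array a group, precision is limited by the number of arrays, and nothing says that the cells came from separate mice. A p-value here weighs an effect against its constancy over times or genotypes, and it does not measure the spread between mice. On simulated data the additive fit called 100 of 100 genes shifted by 1 log2, with 3 false calls among genes given no genotype difference. The simulated shift was constant over the times, the noise SD was the same for every gene, and the shifted genes lay well above the floor. Differences that change with time, such as that of Ccl4 in IRAK2 KO, depart from this setting, so these counts do not carry over to them. Promoters were aligned with Biopython 1.88.

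The members and all gene lists were chosen with earlier results of these data known. All 5 members are named with every probeset. Of each list at most 4 called genes are named per contrast, those with the largest difference (5 for the macrophage markers), and Ccr1 and Ccr3 always. For likeness, the 5 genes of highest Pearson r per member are named. The neighbour Wfdc17 and the marker genes Csf1r, Lyz2, Cd68, Epx and Prg2 were named after their values were seen. Alternatives were the mean of probesets, probesets without shared-sequence suffixes, no floor, centred arrays, a prior variance that follows the mean level, fits of 2 genotypes or 11 arrays, and leaving out each time.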

Additional observations from a re-analysis of the deposited data

How the results depend on the processing

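No paired analysis was possible because each group holds 1 array and the labels carry no replicate numbers. Among the members, 271 alternative values kept their direction and their side of the threshold, 4 lost a call, 1 gained a call and 3 changed sign. All 4 lost calls were those of Ccl6 in IRAK1/IRAK2 KO minus wild type, at -0.41 with the mean of its probesets (limma adjusted p 0.0558), at -0.17 with the other probeset (adjusted p 0.387), and without 4 h or 8 h within a range of -0.91 to -0.44 over the leave-one-out fits. The change with time gained a call for Ccl6 in IRAK1/IRAK2 KO minus wild type with a prior variance that follows the mean level (-0.47, limma adjusted p 0.0497). That of Ccl9 was 0.021 in IRAK2 KO minus wild type, -0.063 with the mean of probesets and -0.15 with the other probeset, and it was -0.30, against 0.0997 on the other probeset, in IRAK1/IRAK2 KO minus IRAK2 KO. The cause of these changes was not tested. The other probeset was tried after seeing the data.

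Counts of genes called moved more. For IRAK2 KO minus wild type, 83 genes were called, 44 without probesets of shared sequence, 553 with only 2 genotypes, 143 with 11 arrays and 6 to 14 with 1 time left out, where fewer arrays enter the fit. Leaving out 1 time gave 2111 to 4048 genes, lowest without 4 h, for IRAK1/IRAK2 KO minus wild type (4458 with all times) and 1572 to 3997, lowest without 4 h, for IRAK1/IRAK2 KO minus IRAK2 KO (4214 with all times). For the change with time in IRAK1/IRAK2 KO minus wild type, 15 genes were called, 7 with the mean of probesets, 41 without a floor and 132 with the trended prior, and in IRAK1/IRAK2 KO minus IRAK2 KO 1 and 8 with the trended prior. At least 2-fold above 0 h in IRAK1/IRAK2 KO were 4243, 4463 and 4783 genes at 2, 4 and 8 h against its own 0 h array, and 498, 539 and 397 against the mean of the other 0 h arrays, where the members numbered 2, 2 and 1 in place of 4 at each time. At least 2-fold below wild type in IRAK2 KO were 32, 60 and 137 genes, and 18, 30 and 89 with the mean of probesets. Signals near the floor of 3.83 bound what the arrays can resolve.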
